A study of Mus musculus with 2 samples.

Results

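The Meis, Pbx and Pknox genes encode homeodomain proteins of the TALE class, named for an extra loop of residues between the first helices of the homeodomain. The genes described here are Meis1, Meis2, Meis3, Pbx2, Pbx3, Pbx4 and Pknox1, which make 7 of the 27333 genes on the array. They were found by the gene name in the array files, with every non-control probe of each, 14 of 41174 probes in all. Signal played no part in taking the probes, but the genes were chosen with earlier results of these data known. Other genes of these families were not analysed here. The RNA came from leukemia-initiating cells, which can start a leukaemia anew, out of the bone marrow of female mice with acute myeloid leukaemia. The leukaemias expressed the fusion gene MLL-AF9 with YFP, and the sort kept cells positive for YFP, Mac-1 and c-Kit. One group was Jam3-null, lacking the cell surface protein junctional adhesion molecule 3, and the other was Jam3-WT, called WT here. MLL-AF9 was shared by both. Each genotype was measured on 1 one-colour array, whose label names 3 mice. The strain, the age of the mice, the way Jam3 was deleted and the share each mouse gave to the RNA are not given in the sources used here.

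TALE proteins bind DNA in company. A Pbx protein pairs either with a Hox protein or with a Meis or Pknox protein, and Meis1, Pbx3 and Hoxa9 can sit together on the same sites. In leukaemias with MLL fusions, Meis1 and the posterior Hoxa genes are direct targets of the fusion protein, and Meis1 is needed for the cells to keep renewing. Pbx3 is the Pbx partner most often tied to these leukaemias. Pknox1, also called Prep1, competes with Meis proteins for Pbx, and Meis2, Meis3, Pbx2 and Pbx4 are relatives with less studied parts in blood cells.

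What the arrays read was a set of 60-base probes, and 4 of them that lie in coding sequence are shown because they tie a value to a known piece of a protein. They are printed 5′ to 3′ in the sense of the transcript, as the array files give them.
Meis1 probe A_52_P670612: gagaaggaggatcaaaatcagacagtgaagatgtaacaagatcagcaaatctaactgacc
Meis3 probe A_52_P575691: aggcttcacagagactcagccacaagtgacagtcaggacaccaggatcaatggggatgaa
Pbx2 probe A_52_P339182: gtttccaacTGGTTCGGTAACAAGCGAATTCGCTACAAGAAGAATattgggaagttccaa
Pbx4 probe A_51_P428781: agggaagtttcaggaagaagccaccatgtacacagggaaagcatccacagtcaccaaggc
Capitals in the Pbx2 probe mark 12 codons of the third helix of the homeodomain, the part that lies in the major groove of DNA. The Pbx4 probe begins just after the homeodomain, the Meis1 probe lies ahead of it, and the Meis3 probe lies in the last part of its protein. The coordinates are those of the array design, on mm9. The Meis1 probe lies at chr11:18911247-18911306 on the minus strand, the Pbx2 probe at chr17:34731746-34731805 on the plus strand and the Pbx4 probe at chr8:72393975-72394034 on the plus strand. The Meis3 probe runs from 16770024 to 16770812 of chromosome 7 on the plus strand, a span of 789 bases for 60 bases of probe, so it crosses an exon junction. Between probes of different genes in the group, 82 pairs in all, the longest run of identical bases was 8. Probes were compared only with each other, so this does not show whether a probe binds the transcript of a related gene. Exon and UTR annotation on mm9 was not used here.

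With 1 array per genotype there is no replicate, no test between genotypes and no p-value. Differences are log2 values, Jam3-null minus WT, after each array was divided by its 75th percentile signal, so a positive value means a higher scaled signal in the Jam3-null cells. The error beside a signal is the SD that the scanner software deposited for that spot, and the error beside a difference is the SD that follows from both. This error model takes a multiplicative error of 0.1 of the signal, so it covers measurement only and leaves out any spread between mice or leukaemias. Well above background is the scanner software's flag for a spot clear of its background. The lowest signal with that flag was 25.9 for the Jam3-null array against 15.4 for the WT array, so a dim gene passed more easily on the WT array.

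Of the 7 genes, Meis1, Pbx2, Pbx3 and Pknox1 were well above background on both arrays, Meis3 and Pbx4 on the WT array only, and Meis2 on neither. Of the 7, 0 were seen in Jam3-null cells alone, against 1.72% of all genes. In Jam3-null cells Meis1 was 1.76-fold higher and Pbx3 1.85-fold lower, each with every probe in the same direction, as in 74.9% of the 5178 genes with several measured probes. Pbx2 was 1.29-fold and Pknox1 1.16-fold higher. Of these 4 genes, 0 passed 2-fold upward and 0 passed it downward, whereas of the 14370 genes compared 10.3% passed it upward and 8.59% downward. At 1.5-fold, Meis1 passed upward (18.4% of genes compared) and Pbx3 downward (20.3%), and 3 of the 4 lay above 0 (44.8%). Their median difference was 0.29, against -0.07 for all genes compared. That median turned to -0.33 when the genes seen on 1 array were added at their bound, so it depends on which members passed the filter on dim probes.

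**Figure D1:**
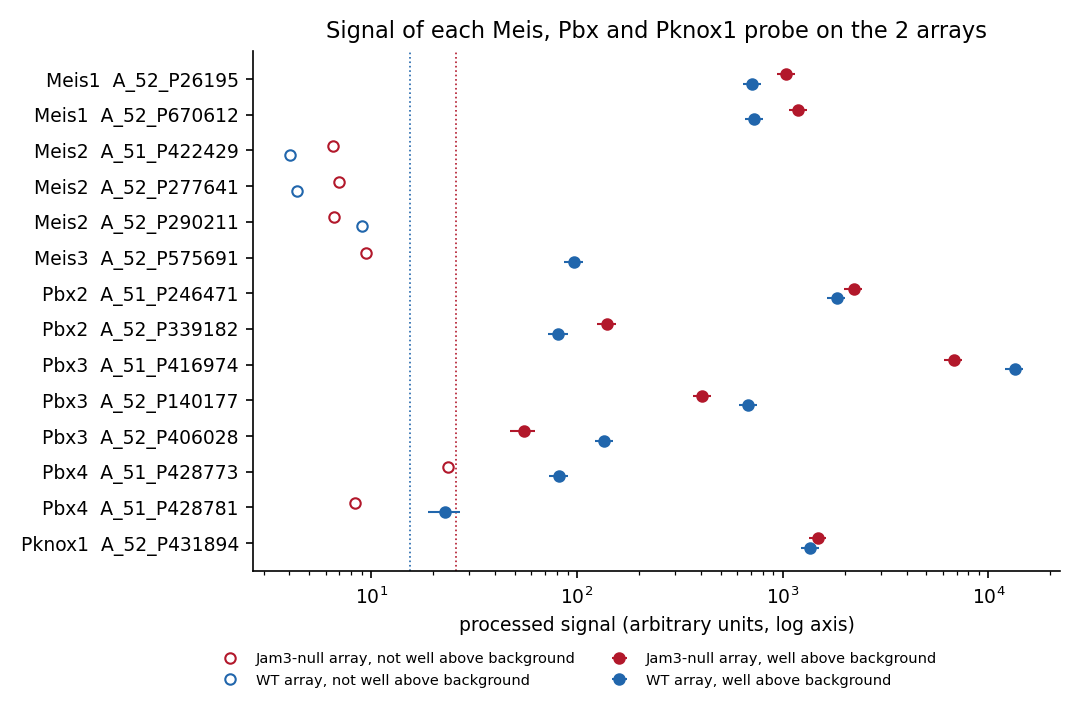
Processed signal (arbitrary units, log axis) of each of the 14 probes on the Jam3-null array (red) and the WT array (blue). Filled points, with error-model SD bars, passed the background flag and open points did not, and dotted lines mark the lowest signal that passed on each array (25.9 and 15.4). Signals of different probes are not comparable as transcript levels. Within a row, both Meis1 probes are brighter on the Jam3-null array and all 3 Pbx3 probes are brighter on the WT array.

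Meis1, the Hox cofactor gene that MLL fusion proteins switch on, was read by 2 probes on chromosome 11. The coding probe shown above gave a processed signal of 1191 ± 119 in Jam3-null and 725 ± 72.6 in WT cells, a log2 difference of 0.81 (error-model SD 0.20). The other probe, at chr11:18781206-18781265, had 1039 ± 104 and 712 ± 71.2, a log2 difference of 0.64 (SD 0.20). Both probes were brighter on the Jam3-null array, and the 2 differences lay 1 error-model SD or less apart. Of all genes compared, 86.5% had a lower difference than Meis1.

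Pbx3, the Pbx partner gene of Meis1 and Hoxa9 in this kind of leukaemia, was read by 3 probes on the minus strand of chromosome 2. Its brightest probe, at chr2:34027483-34027542, had 6778 ± 678 in Jam3-null and 13406 ± 1341 in WT cells. The difference was -0.89 (SD 0.20), and 10.9% of genes compared had a lower one. A probe named for an Ensembl transcript, at chr2:34223741-34223800, had 405 ± 40.9 and 682 ± 68.2, a difference of -0.65 (SD 0.21). The dimmest probe, named for a cDNA clone at chr2:34030520-34030579, had 55.0 ± 7.74 and 135.9 ± 14.0, a difference of -1.21 (SD 0.25). That probe passed 2-fold, and after normexp background correction, which adds an offset of 50 to every signal, it was at -0.78. The 3 probes thus lay on the same side of 0, but only the dimmest passed 2-fold.

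Because Meis1 and Pbx3 lay on opposite sides of 0, their ratio within an array differed between the genotypes. This ratio was chosen after the values were seen. It does not change when an array is multiplied by a constant. On the brightest probes, Meis1 relative to Pbx3 was 1.70 in log2 (SD 0.29), or 3.25-fold, higher on the Jam3-null array. Over the 6 pairs of a Meis1 and a Pbx3 probe it ran from 1.30 to 2.02 in log2. The ratio shows unequal change of the 2 transcripts and not which of them changed. Meis1 relative to Pbx2 was 0.44 (SD 0.29) and Meis1 relative to Pknox1 was 0.59 (SD 0.29), both closer to the measurement error. As a mean of the measured probes, Meis1 relative to Pbx2 was 0.10, and with the other ways of processing it was between 0.35 and 0.44.

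**Figure D2:**
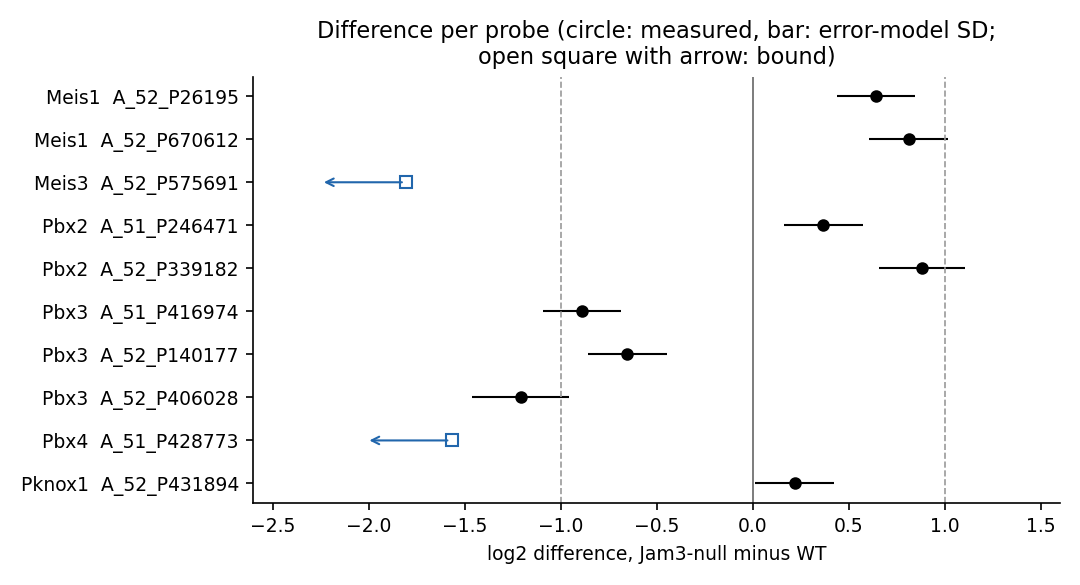
Log2 difference, Jam3-null minus WT, of each probe measured on both arrays (circles, bars are the error-model SD) and bounds for probes seen on the WT array only (open squares with arrows), with dashed lines at 2-fold. The Meis1, Pbx2 and Pknox1 probes lie to the right of 0 and the Pbx3 probes to the left, and the bounds of Meis3 and Pbx4 lie at -1.80 and -1.57.

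Pbx2, another Pbx gene, and Pknox1, the competitor of Meis proteins, differed by less on their brightest probes. The brighter Pbx2 probe, at chr17:34733355-34733414, had 2212 ± 221 in Jam3-null and 1831 ± 183 in WT cells, a difference of 0.37 (SD 0.20). The homeodomain probe of Pbx2 had 140.2 ± 15.3 and 81.3 ± 8.85, a difference of 0.88 (SD 0.22). The Pbx2 probes shared their sign and differed in size by more than the SD of either. After normexp correction they were at 0.35 and 0.51. The offset of 50 in that correction shrinks the difference of a dim probe more than that of a bright one. Their closeness there therefore does not show that the probes agree. The homeodomain is well conserved between Pbx genes, and whether transcripts of other Pbx genes add to that probe's signal was not tested.

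Pknox1 was read by 1 probe, at chr17:31744266-31744325. It had 1484 ± 148 in Jam3-null and 1363 ± 136 in WT cells, a difference of 0.22 (SD 0.20). That is about the size of the measurement error, and 67.7% of genes compared had a lower difference. On the brightest probes, Meis1 and Pbx3 differed by more than 2 error-model SDs and Pbx2 and Pknox1 did not. For Pbx2 this depended on the probe and the processing: its homeodomain probe passed 2 SDs, and the gene was at 0.43 with quantile normalization, 0.48 with cyclic loess, 0.45 in the authors' deposited table and 0.63 as the mean of its probes, each past 2 times the SD of 0.20.

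Meis3 and Pbx4 were seen on the WT array only, as were 8.95% of all genes. The Meis3 probe shown above had 9.43 ± 5.55 in Jam3-null cells, which did not pass the background flag, and 96.6 ± 10.2 in WT cells. Its WT signal was at least 3.49-fold above the lowest accepted signal of the Jam3-null array, a bound of -1.80 in log2. After normexp correction the bound was -0.86, which is less than 2-fold. Meis3 had no second probe to compare.

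Pbx4, a Pbx gene best known from the testis, was read by 2 probes on chromosome 8. The one at chr8:72395968-72396027 had 23.6 ± 6.21 in Jam3-null and 81.9 ± 8.88 in WT cells, at least 2.96-fold lower, with a bound of -1.57 (-0.55 after normexp correction). Its Jam3-null signal lay between the lowest accepted signals of the 2 arrays. The coding probe of Pbx4 had 8.31 ± 5.54 and 22.9 ± 3.95, and its WT signal was under the Jam3-null limit of 25.9, so it gave no bound. Both Pbx4 probes were thus well above background on the WT array alone. Bounds of at least 2-fold lower were reached by 15.8% of the 2447 genes seen on the WT array only.

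Meis2, a close paralogue of Meis1, was not well above background with any of its 3 probes. Their signals were between 6.51 and 6.94 on the Jam3-null array and between 4.03 and 9.02 on the WT array, so no fold is given. On these arrays 36.6% of all genes were seen on neither array. Meis2 transcripts were thus not detectable at this signal, which does not show that they are absent.

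**Figure D3:**
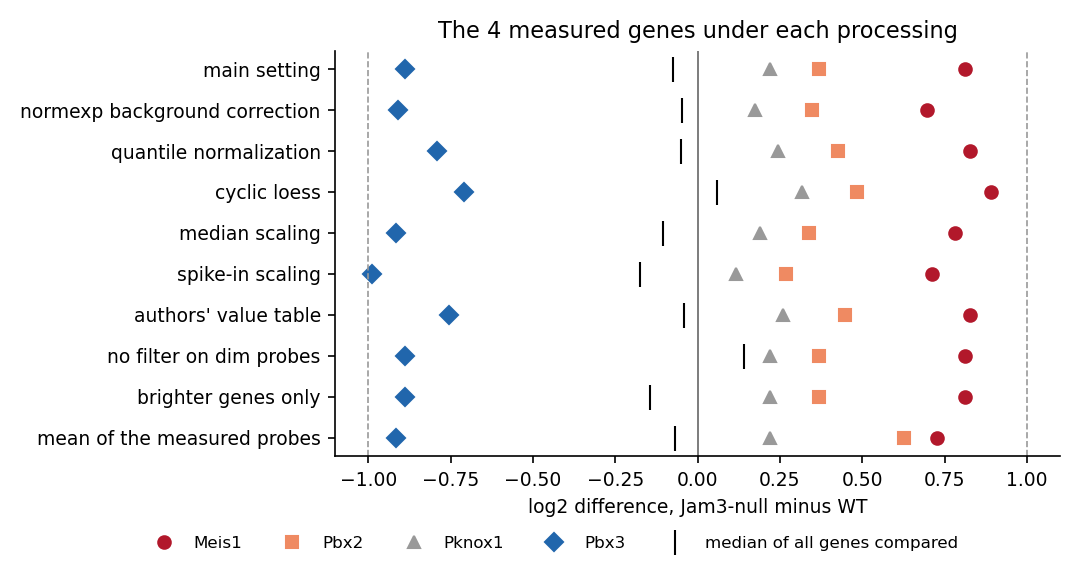
Log2 difference, Jam3-null minus WT, of the 4 genes measured on both arrays under 10 ways of processing, with the median of all genes compared as a tick and dashed lines at 2-fold. Meis1 stays between 0.70 and 0.89 and Pbx3 between -0.99 and -0.71, while Pbx2 and Pknox1 stay above 0.

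Meis1, Pbx2 and Pknox1 were above 0 and Pbx3 below 0 under all 10 ways of processing that gave them a value. The 2 changes to the filter on dim probes leave these values as they were by construction. Cyclic loess raised the median of all genes compared by 0.13 in log2, and scaling on spike-in probes lowered it by 0.10. Pbx3 was at -0.71 with cyclic loess and -0.99 with spike-in scaling, and Meis1 at 0.89 and 0.71. Spike-in and median scaling move every gene by the same amount, so there each gene keeps its place among the others by construction. The Meis1 to Pbx3 ratio was between 1.58 and 1.70.

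Other TALE genes were mostly dim. Of 9 (6 Irx genes, Tgif1, Tgif2 and Mkx), 3 were measured on both arrays, 2 on the WT array only and 4 on neither, and of the 3 measured, 2 were at least 2-fold lower and 0 higher, beside the 8.59% and 10.3% of all genes compared. Tgif1 and Tgif2 encode TALE repressors, and Tgif1 is known to oppose Meis1 on shared sites. Tgif1 had a signal of 43.1 in Jam3-null and 205 in WT cells, a difference of -2.15 (SD 0.28), or -1.29 after normexp correction. Tgif2 had 35.5 and 506, a difference of -3.74 (SD 0.31), or -2.45 after normexp correction. Both Jam3-null signals lay not far above the lowest accepted signal of that array, and each gene had 1 measured probe. Irx5, seen on the WT array only, had a bound of -0.74.

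Hoxa genes, whose products bind DNA with Pbx and Meis proteins, went both ways. Of 11, 10 were measured on both arrays, 6 above and 4 below 0, with 2 at least 2-fold higher, 0 lower and a median of 0.28. Of all genes compared, 44.8% were above 0, 10.3% passed 2-fold upward and 8.59% downward. Hoxa9, the Hox partner of Meis1 and Pbx3 in this kind of leukaemia, had a signal of 14313 in Jam3-null and 9229 in WT cells. The difference was 0.73 (SD 0.20). Hoxa9 and Meis1 thus lay on the same side of 0, and Pbx3 on the other. The genes past 2-fold were Hoxa2, at 1.51 (1.01 after normexp correction), and Hoxa5, at 1.01. Hoxa5 was under 2-fold after normexp correction (0.94), and with median or spike-in scaling. Each Hoxa gene had 1 measured probe.

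Genes reported as targets of Meis1, alone or with Hoxa9 or Pbx3, split. Of 17, 15 were measured on both arrays and 2 on the WT array only. At least 2-fold lower were 6 and higher 3, beside the 8.59% and 10.3% of all genes, and the median was -0.00384. The largest differences were those of the cyclin gene Ccnd1 (-5.97, or -5.04 after normexp correction), the receptor tyrosine kinase gene Flt3 (-3.51), the progenitor surface gene Cd34 (-3.41) and the survival gene Bcl2 (-2.97). Then came Sytl1, a synaptotagmin-like gene of membrane traffic, at 2.18, and the transcription factor gene Hlf at -2.10 (-1.17 after normexp correction).

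Flt3 had a signal of 291 in Jam3-null and 3534 in WT cells. Myb, a transcription factor gene of progenitors, was at -0.07, with 2 of its 4 probes above 0. Its sign turned with quantile normalization, cyclic loess and the authors' deposited table. Hif1a, a hypoxia factor gene under Meis1 in stem cells, was at 0.45 (SD 0.20). Pf4, a platelet chemokine gene, was seen on the WT array only, with a bound of -1.16. The reported targets thus did not follow one direction while Meis1 was 1.76-fold higher.

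**Figure D4:**
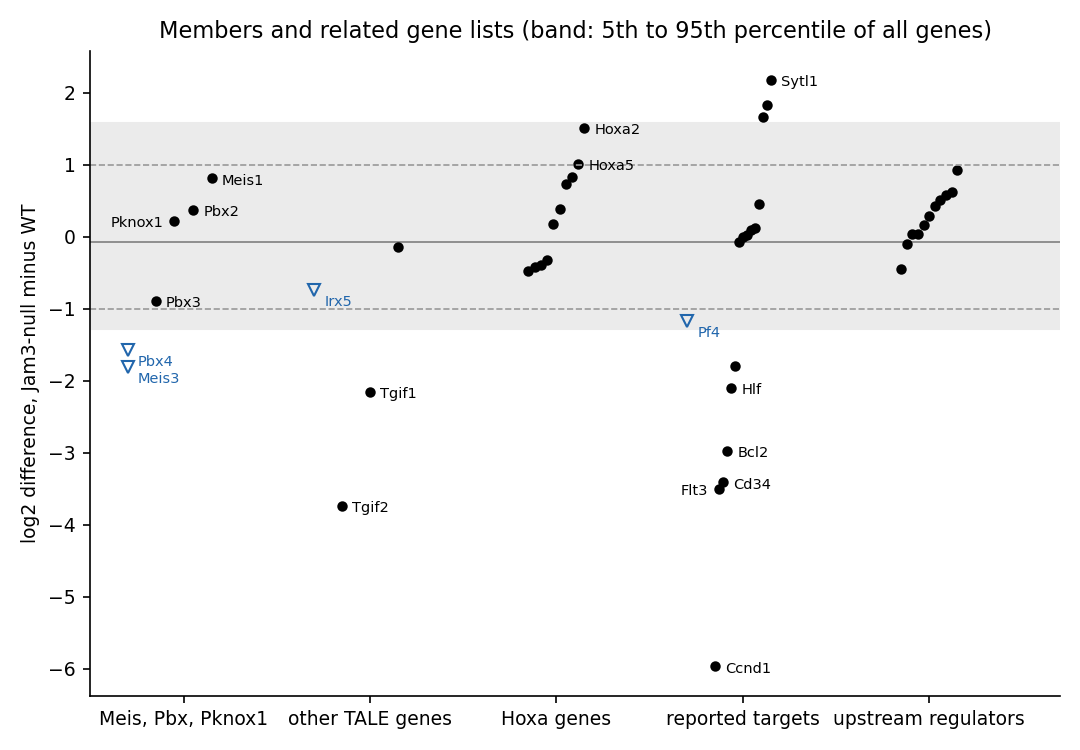
Log2 difference, Jam3-null minus WT, of the members and of 4 related gene lists (points, measured on both arrays; open triangles, bounds), with the 5th to 95th percentile of all genes compared as a band from -1.28 to 1.57 and dashed lines at 2-fold. The 4 measured members lie inside the band. Tgif1, Tgif2 and several reported targets, Ccnd1 the lowest, lie below it, and other reported targets, Sytl1 the highest, lie above it.

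Regulators reported upstream of Meis1, the machinery used by MLL fusion proteins and the CREB coactivators, differed by less than 2-fold on their brightest probes. All 11 were measured on both arrays, 9 above and 2 below 0 (44.8% of all genes compared were above 0), with a median of 0.28 and a range from -0.44 to 0.93. At least 2-fold higher were 0 and lower 0, beside 10.3% and 8.59% of all genes compared. The highest, named after its value was seen, was Aff1, a scaffold gene of the elongation complex, at 0.93. It passed 2-fold with cyclic loess, where it was at 1.08, with quantile normalization and in the authors' deposited table. Single probes went further: the 3 measured probes of Aff1 ran from 0.31 to 1.53. The 4 of Aff4, named after its values were seen, ran from 0.28 to 1.04. The lowest probe in the list was one of Mllt1, at -0.61. Psip1 and Crebbp, also named after their values were seen, were below 0 with spike-in scaling, and they and Mllt1 were below 0 as a mean of their probes.

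The cells' own markers were checked beside these values. Jam3 was read by 2 probes and 0 were well above background on either array, so the genotype labels could not be checked on it. Kit was at 0.09 (-0.01 with spike-in scaling) and Itgam, which encodes the Mac-1 chain, at 3.71. Neutrophil markers were at least 2-fold higher on the Jam3-null array in 10 of 10 genes, against 10.3% of all genes compared. They had summed signals of 1028350 and 176983 on the Jam3-null and WT arrays. Of 7 haematopoietic stem cell markers, 1 was measured on both arrays, 4 were seen in WT cells alone and 1, Mecom, in Jam3-null cells alone, and Fgd5 was on neither. Their summed signals, on the probe behind each call, were 274 and 397, of which Mecom gave 183 and 3.40. Of all genes, 8.95% were seen on the WT array only, 1.72% on the Jam3-null array only and 36.6% on neither. Of 7 megakaryocyte markers, 3 were on both arrays and all 3 were above 0, beside 44.8% of all genes compared. Itga2b and Pf4 were on the WT array only and Gp1ba and Ppbp on neither. Summed signals of the megakaryocyte markers were 1007 and 472. Stromal markers, 3 of 6 on both arrays, had summed signals of 416 and 2019.7, with Col1a1 and Pdgfra on neither. Most of both sums came from Pdgfrb, with 301 and 1821. Mast cell and basophil markers, 2 of 5 on both arrays, had summed signals of 2139.8 and 12894, with Ms4a2 on neither. Cpa3 gave 734 and 9538 of these sums and Mcpt8 1340 and 3251. Fcer1a, seen on the WT array only, read 28.5 and 21.7. Erythroid markers had summed signals of 230 on the Jam3-null and 119 on the WT array. Of these, Alas2, seen in Jam3-null cells alone, gave 136 and 5.52. In the same order, the sums were 70.4 and 103 for B cell, 211 and 280 for T cell and 282 and 824 for endothelial markers. The part of these cell types in the Meis and Pbx values was not tested. In such bulk RNA, fewer cells of a type and less RNA per cell cannot be told apart.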

How the data were processed

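Per the file headers, the intensities of the spots come from Feature Extraction 10.7.3.1 of Agilent (10.7 in the submitters' processing notes), with background subtraction and detrending within an array. The intensities were deposited without normalization between arrays. The headers place both arrays on the same slide and scan. Spots flagged as outliers were left out (151 and 163 non-control spots, 0 of them of a member). Log2 processed signals were centred on each array's 75th percentile (667.8 and 713.9), and a gene took its brightest probe by mean. A gene was compared when a probe of it passed the background flag on both arrays (as did 55.0% of spots on the Jam3-null array, 61.8% on the WT array). For a gene seen on 1 array, the bound set its bright signal against the higher of the dim array's lowest accepted signal and the probe's own.

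For 127 probes with repeat spots, the spread of those spots on both arrays gave an SD for a single-spot difference between arrays. Its median was 0.090 in log2, against a median error-model SD of 0.20 over all genes compared. It was 0.25 for the dimmest of 4 equal groups of probes and 0.067 for the brightest, so dim genes are less precise. Of the member probes, 0 had repeat spots. The number of arrays limits every value. Probes were named through a RefSeq gene table of GRCm38.p6, used for names only (27761 by accession, 460 by an older symbol, 12953 by the file's name). The log2 values of the authors' deposited table, with no normalization method stated, were an alternative. The other alternatives were normexp correction, quantile, cyclic loess, median and spike-in (8 probes) scaling, filters on dim probes, the mean of a gene's probes, other fold thresholds and genes at their bound. All 7 members were to be named, and of each related list the genes past 2-fold, at most 6, with Hoxa9, Flt3, Myb and Hif1a whatever their value. Members and lists were chosen with earlier results of these data known. The gene-level step was tested on simulated data. R 4.3.3 with limma 3.58.1 and Python 3.11.15 were used.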

Additional observations from a re-analysis of the deposited data

How the results depend on the processing

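No paired analysis was possible because each genotype has 1 array, and no array could be left out. Of 200 recomputed values, 168 stayed within the error-model SD (for counts, within 1.5 times) and 32 moved. Of the 200, 0 reversed a difference past 2-fold, but that outcome was fixed in advance. The member differences and their median were under 2-fold in the main setting, counts have no sign, and a bound keeps its sign by construction. Some of the 168 could not have moved. Changes to the filter on dim probes leave the 4 measured members as they were, and a count of 0 at 2-fold stays 0 at 3-fold. The Meis3 and Pbx4 bounds fell under 2-fold after normexp correction (-0.86 and -0.55). That correction adds an offset of 50 to every signal, which by arithmetic shrinks the ratios of dim signals. How much of the fall came from the offset was not tested. The mean of its probes put Pbx2 at 0.63. The members' median was -0.33 with genes at their bound and -0.35 with no filter on dim probes. Both put 2 members at least 2-fold lower, Meis3 and Pbx4, which were dim and seen on the WT array only. Beside them, 15.8% of the 2447 genes seen on the WT array only had such a bound. With no filter, 2918 of 27333 genes were at least 2-fold lower. At 1.5-fold, 1 member was higher and 1 lower, beside 18.4% and 20.3% of genes compared.

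Of the 14370 genes compared, 2651 were higher and 2917 lower at 1.5-fold, and 710 and 421 at 3-fold. At 2-fold these counts were 522 and 568 of 7185 with brighter genes only, and 2827 and 2918 of 27333 with no filter on dim probes. Hoxa genes past the threshold, higher, numbered 4 at 1.5-fold, 0 at 3-fold and 1 with brighter genes only, median scaling, normexp correction or spike-in scaling; 1 was lower with no filter on dim probes. Other TALE genes that were lower numbered 0 with brighter genes only and 4 with no filter on dim probes. Of the reported targets, 1 was higher and 3 lower with brighter genes only. Of the upstream regulators, 2 were higher at 1.5-fold, and 1 with the authors' deposited table, cyclic loess or quantile normalization.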
